A study of Mus musculus with 12 samples.

Results

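The miR-290 cluster is a group of microRNA genes on mouse chromosome 7 that is active in embryonic stem (ES) cells, pluripotent cells kept in culture. Its rows were taken from 3 tables of gene values, one each for short RNA, long RNA and mRNA, by name (Mir290 to Mir295, with or without a letter) and by position on this chromosome between 3200000 and 3240000. This rule found the same 7 of 36883 rows in every table: Mir290a, Mir291a, Mir292, Mir291b, Mir293, Mir294 and Mir295. They lie in this order from 3218626 to 3220841 (mm10/GRCm38), over 2216 nt, and each row covers one hairpin of 69 to 84 nt. In the RefSeq annotation 6 of the 7 hairpins, all but Mir290a, lie inside the long noncoding RNA gene D7Ertd143e (3218784 to 3221015), for which the tables hold no row of its own. The same 6 also lie inside the RefSeq span of the coding gene Nlrp12.

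Wild-type and Drosha-deficient ES cells were compared within each fraction. The culture medium of both held serum and leukemia inhibitory factor. Drosha is the enzyme that starts the processing of microRNA transcripts. For the methylation samples of the same series the labels give the line AB1 of the 129Sv/Ev strain and say that the Drosha-deficient cells were derived from it; for the RNA samples they give the genotype only. How Drosha was disrupted, and whether the line is a single clone, is not stated in the sources used here. Each genotype and fraction had 1 library, so no difference below has a replicate check and no p-value was computed.

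MicroRNA genes of this kind are transcribed as long primary transcripts that are capped and carry a poly(A) tail. Drosha, with its partner Dgcr8, releases the hairpin in the nucleus, and Dicer1 cuts it in the cytoplasm into a duplex whose arms are named 5p and 3p. The arm that enters an Argonaute protein guides it to messenger RNAs, mainly through its seed, bases 2 to 8. The miR-290 cluster supplies much of the microRNA of mouse ES cells, and its members with the seed AAGUGCU are known for promoting passage from G1 to S phase by repressing inhibitors of the cell cycle.

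The RefSeq sequence table (GRCm38.p6) gave 13 mature sequences of the 7 members; miR-292a-3p and, for the comparison below, miR-302a-3p were not matched, so the counts of seeds leave them out. The 3p arms are shown to tell the members apart by their seed, which is in capitals.
miR-291a-3p: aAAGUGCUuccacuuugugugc
miR-294-3p: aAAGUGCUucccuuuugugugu
miR-295-3p: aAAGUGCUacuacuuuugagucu
miR-290a-3p: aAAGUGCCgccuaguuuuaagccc
miR-291b-3p: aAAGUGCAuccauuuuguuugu
miR-293-3p: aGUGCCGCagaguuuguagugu
The first 3 share the seed AAGUGCU, which 5 of the 1679 mature mouse microRNAs in the table carry (0.298%). The other 2 with it come from the miR-302 cluster on chromosome 3.
miR-302b-3p: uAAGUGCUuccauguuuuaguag
miR-302d-3p: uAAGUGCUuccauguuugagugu
The 3p arms of Mir290a and Mir291b carry the seeds AAGUGCC and AAGUGCA, and that of Mir293 carries GUGCCGC. The letters AAGUGC stood within bases 2 to 8 in 16 of the 1679 sequences (0.953%), 5 of them from this cluster. Among the 5p arms, 3 share one seed, and these come from Mir290a, Mir292 and Mir293.
miR-290a-5p: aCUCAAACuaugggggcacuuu
miR-292a-5p: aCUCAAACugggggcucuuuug
miR-293-5p: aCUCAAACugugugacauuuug

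A value in the tables belongs to a whole hairpin, so the arms cannot be told apart. The hairpins of Mir293 and Mir295 are shown with both mature arms in capitals, because they mark the extremes of the results below: Mir293 had the highest wild-type value, and Mir295 is the shortest row.
Mir293: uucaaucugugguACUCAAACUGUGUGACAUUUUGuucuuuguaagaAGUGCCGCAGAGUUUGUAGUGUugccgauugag
Mir295: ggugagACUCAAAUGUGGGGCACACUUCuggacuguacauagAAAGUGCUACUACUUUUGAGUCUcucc
Mir293 spans 3220343 to 3220422 and Mir295 spans 3220773 to 3220841. RefSeq also lists Mir290b inside Mir290a and Mir292b inside Mir292; neither has a row in the tables. The sources used here do not state whether the counting used the strand. Reads of these genes therefore cannot be separated.

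Values are FPKM, fragments scaled by the authors to row length and library size. Low FPKM values of the hairpin rows were whole multiples of the worth of 1 fragment, which allowed the fragments behind each value to be recovered. By this estimate the wild-type libraries held 2730000 fragments in short RNA, 19320000 in long RNA and 23000000 in mRNA. The Drosha-deficient ones held 3180000, 23280000 and 26140000 in the same order. The Drosha row was lower in the libraries labelled Drosha-deficient, with 42.1 against 6.22 FPKM (mRNA) and 21.2 against 4.34 FPKM (long RNA). All 9 listed ES cell markers were at or above 10 FPKM in both mRNA libraries. Of 7 fibroblast markers, 3 were at or above 10 FPKM in the wild-type mRNA library and none in the Drosha-deficient one, and their summed level was 118 and 10.35 FPKM; 6 trophoblast markers summed to 180 and 43.7 FPKM. Endoderm markers summed to 1.60 and 2.99 FPKM and neural markers to 11.8 and 25.4 FPKM. Their part in the differences of the cluster was not tested. In such bulk samples, fewer cells of a type and less RNA per cell cannot be told apart.

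Short RNA is the fraction that holds the mature microRNAs. All 7 rows were lower in Drosha-deficient cells, none was higher, and none was listed at 0. The call was a log2 difference of at least 1 in size on the log2(FPKM + 1) scale, for rows with an OK status and at least 1 FPKM in 1 library; 18.4% of all 2597 measured rows and 92.8% of the 152 other measured microRNA rows were lower by the same call, while 14.8% and 3.95% were higher. The median log2 difference was -5.00 over the members, -5.76 over the other microRNA rows and -0.03 over all rows. Among the other microRNA rows 96 (63.2%) were listed at 0 in Drosha-deficient cells. Their depth differed from that of the members: those of hairpin length had a median of 123 wild-type fragments. The members had 48 (Mir291b) to 173621 (Mir293), and the next lowest, Mir290a, had 1191. A row with fewer wild-type fragments reaches 0 at a smaller loss, so the rows listed at 0 do not show a larger loss than in the members.

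Mir293, whose 3p arm lacks the AAGUGC seed, was the most abundant member in wild-type cells, at 1136290 FPKM; the Drosha-deficient value was 350 FPKM, 3244-fold lower. Mir292 had 556982 and 17368 FPKM, 32.1-fold lower. These were the rows of rank 1 and 2 among 159 measured microRNA rows in wild-type cells, but in Drosha-deficient cells Mir292 held rank 3 and Mir293 rank 16.

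The members with the seed AAGUGCU were less abundant than both in wild-type cells. Mir295 went from 115394 to 1721 FPKM (67.0-fold lower), Mir294 from 45569 to 601 FPKM (75.8-fold lower) and Mir291a from 83824 to 3027 FPKM (27.7-fold lower). Mir290a had 7404 and 530 FPKM, 14.0-fold lower. Mir291b was the least abundant member and the least lowered, at 320 and 54.7 FPKM, 5.84-fold lower. The log2 differences ran from -11.66 for Mir293 to -2.52 for Mir291b.

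**Figure D1:**
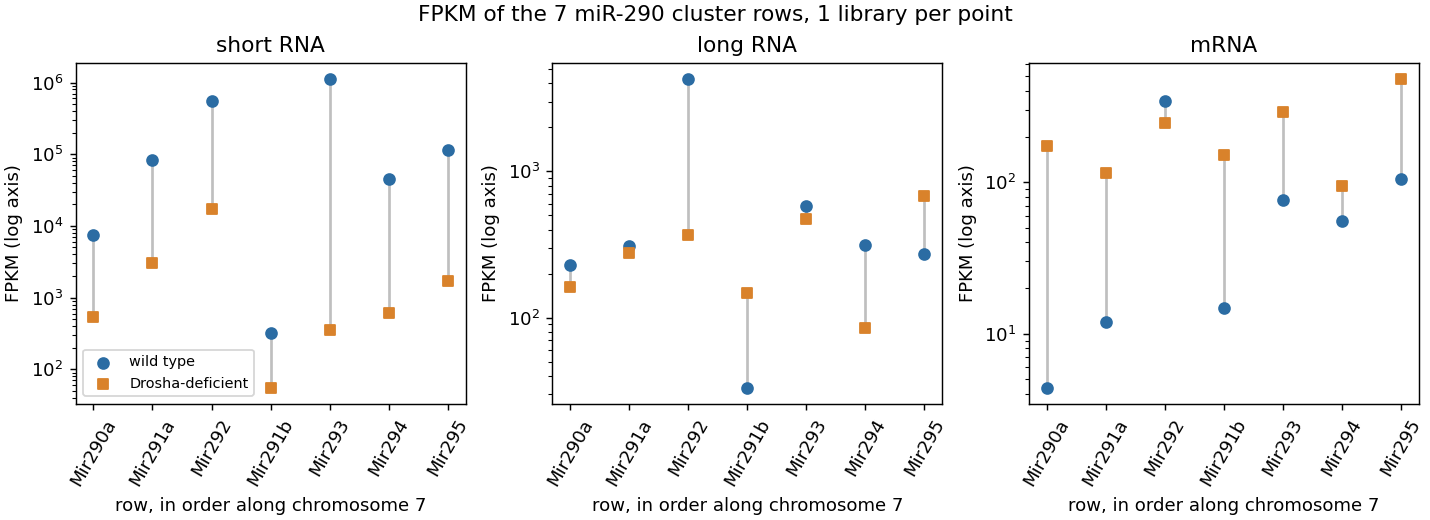
FPKM on a log axis of each of the 7 hairpin rows, in order along chromosome 7, in short RNA, long RNA and mRNA; circles are the wild-type and squares the Drosha-deficient library, 1 library per point. In short RNA every square lies below its circle, in mRNA 6 of 7 lie above, with Mir292 the exception, and in long RNA 2 of 7 (Mir291b and Mir295) lie above.

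In short RNA, fragments gave larger differences than the FPKM. For longer rows, FPKM divides fragments by the row length less a length that stands for the typical fragment. The fitted length subtracted was 24.8 nt in the wild-type and 71.0 nt in the Drosha-deficient short RNA library. Hairpin rows had a separate fit, in which the effective length is not the row length less this length. By that fit, 1 fragment on a hairpin of 80 nt was worth 6.54 FPKM in wild-type and 17.5 FPKM in Drosha-deficient cells. This corresponds to an effective length of 56.0 and 17.9 nt. Mir293 corresponded to about 173621 fragments in wild-type and 20 in Drosha-deficient cells. Scaled to the fragments of each library this was 10126-fold lower, with a 95% counting interval of 6556 to 16577. Intervals here are exact for the ratio of 2 counts; they cover counting error only, and reads without molecular identifiers are not independent molecules.

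Mir292 corresponded to about 88093 and 1070 fragments, 96.0-fold lower (90.4 to 102). Mir295 corresponded to 14236 and 61 fragments, 272-fold lower (212 to 356), where the FPKM gave 67.0-fold. For this shortest hairpin, of 69 nt, the fitted effective length was 45.2 and 11.1 nt. Its Drosha-deficient fragment number is approximate, as are all numbers well above 30. Mir294 corresponded to 7452 and 40 fragments (217-fold lower, 159 to 304), Mir291a to 13258 and 186 (83.1-fold, 71.9 to 96.6), and Mir290a to 1191 and 34 (40.9-fold, 29.1 to 59.3). Mir291b rested on 48 and 3 fragments, 18.7-fold lower, and its interval of 6.01 to 93.7 is wide enough to hold the values of Mir291a and Mir290a. The interval of Mir293 did not meet that of any other member, and those of Mir294 and Mir295 overlapped. The loss by fragments was 2.87 to 4.06 times the loss by FPKM over the 7 members, and 1.82 to 4.79 times over the 41 other microRNA rows with fragments in both libraries.

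Summed over the 7 hairpins there were 297899 fragments in wild-type and 1414 in Drosha-deficient short RNA, which is 10.9% and 0.0444% of the library, 246-fold lower (233 to 259). Of the 1414 fragments left, Mir292 alone gave 1070. Without Mir292, a row singled out after its values were seen, the sum was 711-fold lower (640 to 793). The cluster held 57.9% of the summed FPKM of measured microRNA rows in wild-type and 8.17% in Drosha-deficient cells; without Mir293 these were 36.4% and 8.06%. Over the 130 rows of hairpin length it held 58.8% and 9.91% of the microRNA fragments. The microRNA rows above Mir292 in Drosha-deficient cells were Mir5099 (151520 and 207566 FPKM) and Mir320 (2270 and 36857 FPKM), a hairpin known to be made without Drosha. The Drosha-deficient share depends on these rows, which were not lower, and it was not computed without them. The fall in share therefore does not mean a larger loss than in other microRNA rows. The median log2 difference was -5.00 over the members and -5.76 over the other microRNA rows. The latter includes rows listed at 0, whose differences depend on the pseudocount.

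**Figure D2:**
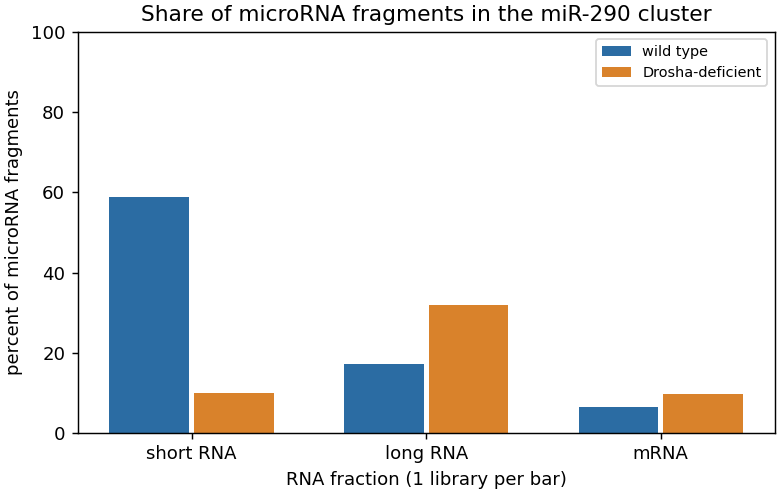
Bars give the percent of all recovered microRNA fragments that fell on the 7 hairpins of the cluster in each of the 6 libraries, over measured microRNA rows of hairpin length (130 in short RNA, 93 in long RNA, 57 in mRNA). The wild-type and Drosha-deficient shares are 58.8% and 9.91% in short RNA, 17.1% and 31.9% in long RNA, and 6.43% and 9.63% in mRNA. The larger long RNA share is no gain in fragments: the cluster went from 4298 to 1140 and all these microRNA rows from 25194 to 3576.

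The rows of the miR-302 cluster, and the one found for the shifted seed of the miR-17 group, were lower in short RNA too. Mir302d had 17206 and 196 FPKM, Mir302b had 7328 and 45.2 FPKM, Mir302a had 8260 and 28.2 FPKM and Mir302c had 721 and 29.6 FPKM. Their log2 differences of -4.56 to -8.14 overlapped those of the miR-290 members. The 4 miR-302 rows share one locus in the tables, so their fragments were not recovered. Of 6 listed members of the miR-17 group, whose 5p seed AAAGUGC is the same run of letters moved by one base, only Mir20b had a row of its own; it had 30105 and 105 FPKM.
miR-20b-5p: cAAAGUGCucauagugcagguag

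By wild-type level the nearest microRNA rows to the members differed widely in what was left. Mir379, just below Mir295 in wild-type cells, had 91381 and 35.0 FPKM, and Mir5099, just above Mir295, was higher in Drosha-deficient cells by 0.45 on the log2 scale. Mir183, just below Mir292, had 243378 and 2423 FPKM. Mir127, just below Mir291a, had 74500 and 796 FPKM, and Mir381, just above Mir294, had 68060 and 24.7 FPKM. Mir30a, just below Mir294, had 33408 and 5568 FPKM. Mir298, just below Mir290a, had 7353 and 227 FPKM, while Mir337, just above it, had 7635 FPKM and was listed at 0 in Drosha-deficient cells. Mir291b lay between Mir375 (351 and 43.3 FPKM) and Mir146 (257 FPKM, listed at 0). By size of the loss the members held ranks 12 (Mir293) to 139 (Mir291b) of 159, where 1 is the largest loss. The ranks of rows listed at 0, and so those of the members among them, depend on the pseudocount.

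In mRNA, RNA selected by its poly(A) tail, the direction was the opposite for most of the cluster. Of the 7 rows 5 were higher in Drosha-deficient cells and none was lower, against 8.64% higher and 7.93% lower among all 14752 measured rows. Of the 65 other measured microRNA rows 50.8% were higher and 36.9% lower. The median log2 difference was 2.19 over the members, 1.07 over the other microRNA rows and 0.01 over all rows. Each table has its own scaling, so a level in one fraction is not set against a level in another.

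Mir290a, the first hairpin of the cluster, went from 4.38 to 174 FPKM in mRNA, or from 3 to 97 fragments, a ratio scaled to library size of 28.4 (9.45 to 140). Mir291b went from 14.7 to 152 FPKM and from 9 to 73 fragments, 7.14-fold higher by scaled fragments (3.56 to 16.2). Mir291a went from 12.0 to 115 FPKM and from 8 to 62 fragments, 6.82-fold higher (3.25 to 16.5). These 3 rows had the fewest wild-type fragments, and their intervals overlap.

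Mir295 had 105 and 483 FPKM in mRNA, from 46 and 151 fragments, 2.89-fold higher by scaled fragments (2.06 to 4.11). Mir293 had 76.2 and 290.1 FPKM, from 48 and 145 fragments, 2.66-fold higher (1.91 to 3.76). Mir294 had 55.4 and 93.7 FPKM and was called neither way; its fragments, 39 and 54, gave a ratio of 1.22 with an interval from 0.792 to 1.89, so no difference was detectable at this depth. Mir292 had 342 and 245 FPKM and was called neither way; its 228 and 132 fragments gave a ratio of 0.509 (0.408 to 0.634). The cluster as a whole had 381 and 714 fragments, 1.65-fold higher by scaled fragments (1.45 to 1.87), and 3.35-fold higher without Mir292 (2.80 to 4.03).

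**Figure D3:**
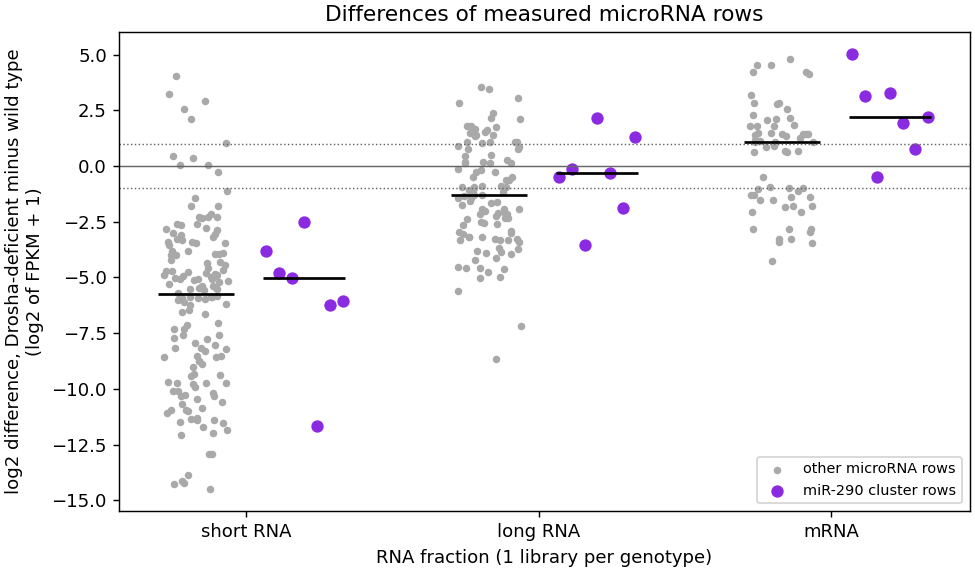
Log2 difference on the log2(FPKM + 1) scale, Drosha-deficient minus wild type, of every measured microRNA row in the 3 fractions; grey points are the other microRNA rows, purple points the miR-290 cluster rows, black bars the medians and dotted lines the call of 1 in either direction. The medians of the cluster go from -5.00 in short RNA through -0.30 in long RNA to 2.19 in mRNA, and those of the other microRNA rows from -5.76 through -1.32 to 1.07. In both mRNA libraries the other microRNA rows of hairpin length had a median of 1 fragment.

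In long RNA the rows went both ways. Mir291b and Mir295 were higher, Mir292 and Mir294 were lower and Mir290a, Mir291a and Mir293 were called neither way, against 6.26% higher and 6.89% lower among all 13933 measured rows. Among the 108 other measured microRNA rows 20.4% were higher and 55.6% lower. The median log2 difference was -0.30 over the members, -1.32 over the other microRNA rows and -0.04 over all rows. The table of long RNA was tied to the samples titled total RNA by elimination.

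Mir292 stood apart in wild-type long RNA at 4320 FPKM, 71.3% of the summed FPKM of the cluster there, and had 365 FPKM in Drosha-deficient cells, 11.8-fold lower. In fragments it had 3113 and 221, 17.0-fold lower by scaled fragments (14.8 to 19.5). It is the one member that the authors' deposited table marks as changed in long RNA, with a q-value of 0.0425. No member is marked in the authors' deposited table of short RNA, where the lowest q-value is 0.294, or in that of mRNA, at 0.999. The q-value of Mir292 comes from 1 library per genotype and so compares these libraries, not the genotypes. Mir294 had 316 and 85.3 FPKM, from 239 and 55 fragments, 5.24-fold lower by scaled fragments (3.89 to 7.15).

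Mir291b had 32.9 and 148 FPKM in long RNA, from 22 and 81 fragments, 3.06-fold higher by scaled fragments (1.89 to 5.14). Mir295 had 272 and 674 FPKM, called higher, but its fragments went from 135 to 248, a ratio scaled to library size of 1.52 (1.23 to 1.89), which is below the call. Mir293 had 582 and 471 FPKM, Mir291a 307 and 276 FPKM and Mir290a 229 and 162 FPKM. Their ratios of scaled fragments were 0.555 (0.474 to 0.65), 0.627 (0.510 to 0.770) and 0.496 (0.384 to 0.638), and the last passes the call. The cluster as a whole had 4298 and 1140 fragments, 4.54-fold lower by scaled fragments (4.26 to 4.85), and 1.55-fold lower without Mir292 (1.42 to 1.70).

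**Figure D4:**
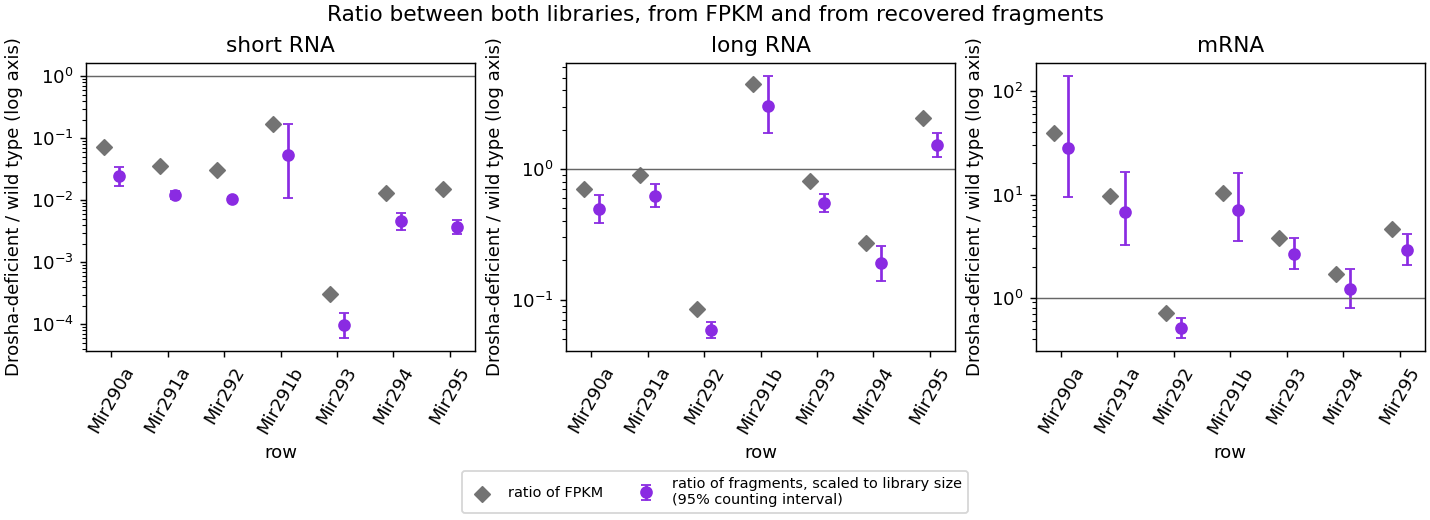
Ratio of Drosha-deficient to wild type on a log axis for each hairpin row in the 3 fractions; diamonds are ratios of FPKM, circles are ratios of recovered fragments scaled to library size with their 95% counting interval, and the line at 1 marks equal values. In every row the circle lies below the diamond; in long RNA Mir295 is at 2.48 by FPKM and 1.52 by fragments.

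The members were more alike in Drosha-deficient than in wild-type long RNA and mRNA. In wild-type mRNA the highest row, Mir292, was 78.1 times the lowest, Mir290a, and in Drosha-deficient mRNA the highest, Mir295 at 483 FPKM, was 5.16 times the lowest, Mir294 at 93.7 FPKM. In long RNA the spread was 131-fold in wild-type and 7.90-fold in Drosha-deficient cells, and in short RNA it was 3554-fold and 317-fold. By FPKM, both Drosha-deficient libraries of longer RNA had the order Mir295, Mir293, Mir292 at the top and Mir294 at the bottom. By recovered fragments Mir293 (267) stood above Mir295 (248) in Drosha-deficient long RNA. Over the 7 members, the FPKM of these 2 libraries had a Spearman's rho of 0.893 and a Pearson's r of 0.875 on the log2 scale, while wild-type long RNA and wild-type mRNA had 0.643 and 0.690. In wild-type cells short and long RNA had 0.821 and 0.844. These are descriptions over 7 points that share libraries, hairpin lengths and length scaling.

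The log2 difference in short RNA was below that in long RNA for all 7 members, with short minus long at -1.44 for Mir292, -11.36 for Mir293 and -4.64 at the median. The miR-302 rows had few reads in the other fractions: Mir302d had 8.92 FPKM in wild-type and was listed at 0 in Drosha-deficient long RNA, and so were Mir302a (8.05 FPKM in wild-type) and Mir302b (6.88 FPKM). In mRNA 2 miR-302 rows were lower, Mir302b from 1.91 and Mir302d from 2.56 FPKM, both listed at 0 in Drosha-deficient cells. One was higher, Mir302a, listed at 0 in wild-type and at 3.20 FPKM in Drosha-deficient mRNA, and the median log2 difference of the 3 was -1.54. At 69 nt 1 fragment was worth 2.28 FPKM in wild-type and 3.20 FPKM in Drosha-deficient mRNA. These miR-302 values in mRNA are thus near the worth of 1 fragment, and their directions carry little weight. Mir20b had 25 and 3 fragments in long RNA and 2 and 1 in mRNA.

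None of the 4 nearest rows, 2 on each side, was measured in short RNA, and those measured in long RNA and mRNA were called neither way. The nearest row before it, AU018091, a coding gene 49423 nt away, was at 44.3 (wild type) and 64.6 (Drosha-deficient) FPKM in mRNA, and in long RNA at 16.5 and 23.4 FPKM. The nearest after it, Nlrp12, a gene of innate immunity whose row starts 669 nt away, had 0.0509 and 0.0752 FPKM in mRNA and was not measured in any fraction. Next on either side, Gm7353 was not measured in any fraction and Myadm, a membrane protein gene, had 37.4 and 29.4 FPKM in mRNA. In short RNA Myadm was listed at 2.98 and 0.654 FPKM without the OK status.

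Among 2426 rows measured in all 3 fractions, the 5 with log2 differences closest to the medians of the cluster were Tmem38b, Mir431, Lrch3, Mir29a and Gm20732, at Euclidean distances of 0.826 to 1.36 over 3 values. Mir29a had 1216 and 26.3 FPKM in short RNA and was listed at 0 in wild-type mRNA, against 6.10 FPKM in Drosha-deficient mRNA. Tmem38b, an ion channel gene, had 5970 and 240 FPKM in short RNA. In long RNA it was at 9.41 and 6.14 FPKM, and in mRNA it was at 20.5 and 158 FPKM. Mir431 shares a locus of 11137 nt in the tables with other microRNA genes of chromosome 12. RefSeq places Mir1947 inside Lrch3 and Mir30d inside Gm20732, and no microRNA gene inside the row of Tmem38b.

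Of 16 listed genes that make or use microRNAs, 15 were measured in mRNA, where 4 were higher and 1, Drosha, was lower; the median of their log2 differences was 0.54. The higher ones were Dgcr8 (12.4 and 73.5 FPKM), Ago1, an Argonaute (14.0 and 38.6 FPKM), and the silencing scaffolds Tnrc6a (13.0 and 31.1 FPKM) and Tnrc6b (2.63 and 9.11 FPKM). Xpo5, which exports the cut hairpin, had 31.2 and 41.2 FPKM and Ago2, the Argonaute that can cleave its target, 14.4 and 21.3 FPKM; both were called neither way. In long RNA 2 of 15 were higher, Dgcr8 and Tnrc6a, and Drosha was lower. These genes stand beside the cluster as values only, and no link to its rows was tested.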

How the data were processed

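The submitters' processing notes name the build mm10/GRCm38, Cufflinks 2.1.1 with Cuffdiff, TopHat2 2.0.10 and bcl2fastq 1.8.4. The annotation, the strand setting and the scaling of libraries were not stated in the sources used here. Per the labels' protocols, long and short RNA were split on a small RNA kit, mRNA was selected on oligo-dT and libraries were made with a small RNA kit. The authors deposited 3 tables with FPKM per genotype, the log2 fold change and Cuffdiff's p-value and q-value, per the file headers. Of 12 samples, 6 RNA libraries were used; those of Dnmt1-deficient cells and 3 methylation samples were not analysed here. Starts were moved from counting from 0 to counting from 1, after comparison with RefSeq.

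The log2 difference used a pseudocount of 1, which understates differences of low values when both are above 0. For a row listed at 0 the pseudocount sets the size of the difference. In Drosha-deficient short RNA 1 fragment at 80 nt was worth 17.5 FPKM, so 1 FPKM is less than 1 fragment. The losses of the 96 other microRNA rows listed at 0 there can therefore be overstated. The fragment worth of 1 FPKM was fitted for rows of 60 to 125 nt, as a polynomial of degree 5 in row length, on microRNA rows of up to 30 fragments. All 32 to 67 such rows per library came out whole within 0.1, and in the Drosha-deficient short RNA library the fit was off by 0.174% (root mean square). Larger fragment numbers are therefore approximate. Library size was fitted on olfactory receptor and pseudogene rows of 300 to 2000 nt, of which 92.4% to 96.6% were whole within 0.05. Both steps were tested on simulated data (Python 3.11.15, NumPy 2.4.6, SciPy 1.17.1). The simulations were built on wild-type short RNA and mRNA rows. None was set to the longer fragment length fitted for the Drosha-deficient short RNA library. No count model was used.

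Genes were named by a rule: all members, microRNAs sharing their seed or the shifted one, 16 pathway genes, the 2 nearest rows on each side, the 5 rows of most alike differences and the microRNA rows next to each member by wild-type level. The members and lists were chosen with earlier results of these data known.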

Additional observations from a re-analysis of the deposited data

Results flagged for a closer look

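Members called lower in short RNA and higher in another fraction were picked out; with 1 library per genotype the difference between fractions was not tested. In mRNA these were Mir290a (log2 difference 5.03), Mir291b (3.28), Mir291a (3.16), Mir295 (2.19) and Mir293 (1.91). In long RNA they were Mir291b (2.13) and Mir295 (1.31). By fragments scaled to library size Mir295 in long RNA was at 0.61 on the log2 scale, below the call.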

How the results depend on the processing

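All 7 members were lower in short RNA and 5 were higher in mRNA under every alternative tried: pseudocounts of 0.1 and 5, a minimum of 5 FPKM, no minimum, centring on all or on non-microRNA rows, centring on Rn7sk (short RNA only) and fragments scaled to library size in place of FPKM, the last chosen after seeing the data. In long RNA the count of higher members fell from 2 to 1 by scaled fragments and that of lower members went from 2 to 3. The median of short minus long RNA moved from -4.64 to -5.70 by scaled fragments. The wild-type share of the summed microRNA FPKM moved from 57.9% to 36.4% without Mir293. Medians moved in short RNA to -6.99 when centred on Rn7sk (log2 difference 1.99) and to -6.59 by scaled fragments, and in mRNA from 2.19 to 1.53 by scaled fragments. Each value of a single member was compared with a band as wide as its counting interval but centred on the reported FPKM value. Of 154 values 132 stayed within this band, 22 moved beyond it and 0 changed sign with a call. Those that moved all came from centring on Rn7sk or from scaled fragments. Neither minimum setting could change a member, because each had the OK status and exceeded 5 FPKM in at least 1 library. Centring on all rows could move little, as their median was -0.03 in short RNA, -0.04 in long RNA and 0.01 in mRNA. In short RNA the pseudocounts could hardly act, because the lowest member value was 54.7 FPKM. Other pseudocounts were tried on the members only, not on the other microRNA rows. Depth limits Mir291b in short RNA (3 fragments left) and Mir290a in mRNA (3 in wild type). No paired analysis was possible because each group holds 1 library.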
